A study of Mus musculus with 19 samples.

Results

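The SOX genes of groups D, E, F and H were examined for SOX3 occupancy in the juvenile mouse testis. They are 10 genes of 26182 with a curated RefSeq transcript: Sox5, Sox6 and Sox13 (group D), Sox8, Sox9 and Sox10 (group E), Sox7, Sox17 and Sox18 (group F) and Sox30 (group H). The list is made of the members of these 4 groups by name, and it was drawn up with earlier results of these data known. The samples were 2 SOX3 ChIP-seq replicates and 2 SOX3 ChIP-nexus replicates from mouse testis at postnatal day 7, with no genotype, strain or treatment given in the labels. ChIP-seq sequences the DNA fragments that an antibody against a protein recovers, and ChIP-nexus adds an exonuclease that trims each fragment towards the bound protein. Per the methods, the starting material was seminiferous tubules isolated from several mice after the tunica was removed. The tubules hold both Sertoli cells and germ cells, so the cell type that gave a peak cannot be told apart from these lists alone. The paper treats SOX3 as specific, within the testis, to undifferentiated spermatogonia, and its staining at postnatal day 7 showed SOX3 in them. The labels name a pair of SOX3 antibodies for every library, without saying which was used in which replicate. Cell type markers could not be checked, since peak lists hold no expression values.

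SOX proteins bind DNA through an HMG box, which recognises a short AT-rich sequence and bends the DNA, and all members of the family bind similar sequences. Group D proteins lack a transactivation domain of their own and act with partner factors, in cartilage above all. Group E proteins direct Sertoli, neural crest and cartilage fates, group F proteins act in endothelium and group H, which is Sox30 alone, acts in male germ cells. SOX3 itself belongs to group B1 and is made in undifferentiated spermatogonia.

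SOX3 peaks lay within 2 kb of an annotated start site, here called the promoter, at 8 of the 10 genes in replicate 1 and at the same 8 in replicate 2. These were Sox5, Sox6, Sox13, Sox8, Sox9, Sox10, Sox18 and Sox30, and the group F genes Sox7 and Sox17 had no promoter peak in either replicate. Of all genes, 62.7% had a promoter peak in replicate 1, 54.7% in replicate 2 and 52.2% in both. The highest scores were those of Sox9, Sox8 and Sox30, and the lowest was that of Sox5. At 7 of the 10 genes a promoter peak of one replicate overlapped one of the other, against 50% of all genes. The overlap had to reach at least 50% of the length of either peak. Over all genes, 13665 had a promoter peak in both replicates and 13101 had overlapping ones, where the 10 genes gave 8 and 7. The exception among the 8 was Sox5, whose peaks did not touch.

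The promoter sequences differed in composition and in SOX motifs, and a contrast of covered and uncovered start sites is shown first. RefSeq promoter windows (GRCm38.p6, from 250 bases before to 50 after a start site) matched 5 of the 10 genes, in 10 windows: Sox5, Sox6, Sox13, Sox8 and Sox30. The genes Sox9, Sox10, Sox7, Sox17 and Sox18 were not matched. The windows of Sox13, Sox8 and Sox30 lay wholly under a peak in both replicates and held 40, 21 and 28 CpG dinucleotides, set in capitals, with a median of 7 over all 32851 windows. None of these 3 windows held, on either strand, any of the 8 heptamers of the SOX consensus, which read NNCAANG with A or T at each N.
Sox13, chr1:133424163-133424462, minus strand: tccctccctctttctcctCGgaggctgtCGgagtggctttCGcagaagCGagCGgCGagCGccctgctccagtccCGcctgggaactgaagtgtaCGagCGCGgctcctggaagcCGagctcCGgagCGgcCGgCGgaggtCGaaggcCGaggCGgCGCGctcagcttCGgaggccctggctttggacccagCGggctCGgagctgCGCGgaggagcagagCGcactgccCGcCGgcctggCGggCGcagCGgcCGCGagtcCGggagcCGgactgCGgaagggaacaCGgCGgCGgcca
Sox8, chr17:25570637-25570936, minus strand: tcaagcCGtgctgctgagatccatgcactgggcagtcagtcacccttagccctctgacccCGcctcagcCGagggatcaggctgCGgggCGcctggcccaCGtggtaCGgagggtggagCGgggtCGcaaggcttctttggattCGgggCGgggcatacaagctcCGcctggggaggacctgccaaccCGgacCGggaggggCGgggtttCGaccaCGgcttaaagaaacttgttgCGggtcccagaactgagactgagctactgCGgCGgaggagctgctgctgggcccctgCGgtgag
Sox30, chr11:45980060-45980359, plus strand: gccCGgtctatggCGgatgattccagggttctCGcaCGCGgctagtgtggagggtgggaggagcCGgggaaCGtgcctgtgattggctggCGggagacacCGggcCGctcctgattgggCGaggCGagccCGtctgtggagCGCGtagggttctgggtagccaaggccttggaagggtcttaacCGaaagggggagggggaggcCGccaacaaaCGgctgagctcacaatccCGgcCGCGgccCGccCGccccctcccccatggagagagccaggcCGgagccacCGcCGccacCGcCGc

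All 6 Sox6 windows held a heptamer, and 3 of them are shown, with the heptamers in capitals on whichever strand they lie. The first belongs to the most upstream start site and lay wholly under a peak in replicate 1 and outside any peak in replicate 2. The second lay wholly under a peak in both replicates, and the third lay under a peak in neither. They held 1, 1 and 4 heptamers and 11, 13 and 2 CpG dinucleotides. At least 1 heptamer was present in 24.6% of all 32851 windows, and a match describes letters, not a bound site.
Sox6, chr7:116038695-116038994, minus strand: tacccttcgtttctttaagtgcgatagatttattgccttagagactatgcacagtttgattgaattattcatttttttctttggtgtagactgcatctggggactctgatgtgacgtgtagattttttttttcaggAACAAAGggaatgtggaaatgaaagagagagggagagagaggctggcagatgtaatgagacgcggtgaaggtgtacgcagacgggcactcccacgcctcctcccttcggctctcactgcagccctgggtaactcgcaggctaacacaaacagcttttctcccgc
Sox6, chr7:116030998-116031297, minus strand: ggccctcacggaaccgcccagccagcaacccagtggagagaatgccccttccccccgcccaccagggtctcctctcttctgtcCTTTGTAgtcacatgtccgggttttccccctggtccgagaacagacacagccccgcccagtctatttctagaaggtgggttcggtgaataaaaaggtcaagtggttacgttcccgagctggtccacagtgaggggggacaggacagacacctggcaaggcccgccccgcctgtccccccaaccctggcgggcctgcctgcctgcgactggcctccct
Sox6, chr7:115995037-115995336, minus strand: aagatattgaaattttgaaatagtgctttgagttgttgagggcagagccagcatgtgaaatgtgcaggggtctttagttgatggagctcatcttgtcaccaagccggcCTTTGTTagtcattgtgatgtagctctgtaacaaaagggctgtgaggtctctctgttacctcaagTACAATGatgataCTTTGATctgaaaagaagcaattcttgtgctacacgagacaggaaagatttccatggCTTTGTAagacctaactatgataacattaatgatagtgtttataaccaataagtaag

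The 4 heptamers of the third window began at -142, -77, -64 and -7 relative to the start site, and the match of the first window began at -114 and that of the second at -167. The remaining Sox6 windows, also outside any peak, held 2, 1 and 1 heptamers. The matched Sox5 window, at an internal start site, held no heptamer and lay under no peak. Thus the 3 windows richest in CpG were covered and without a heptamer, and the window with the most heptamers was not covered. Other windows did not follow this contrast. The first Sox6 window, covered in replicate 1, and the second, covered in both, each held a heptamer, and the uncovered Sox5 window held none.

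**Figure D1:**
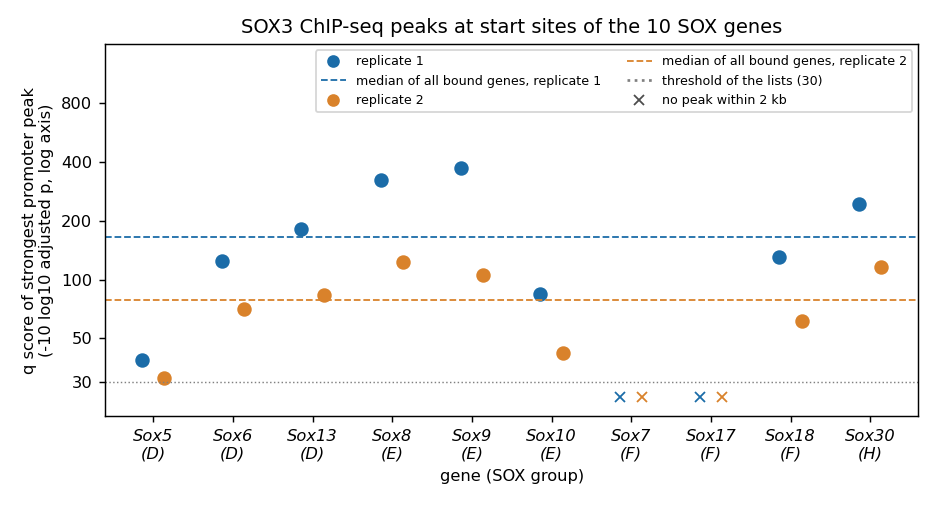
Points give the q score of the strongest SOX3 promoter peak (10 times the −log10 of the adjusted p-value, log axis) of each of the 10 SOX genes in each ChIP-seq replicate, dashed lines the median over all genes with a promoter peak, and crosses mark genes without one. Sox8, Sox9, Sox30 and Sox13 lie above the median of both replicates, and Sox7 and Sox17 have no peak.

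The lists held 58351 peaks in replicate 1 and 38832 in replicate 2, with a minimum q score just above 30, and they hold no read counts. The q score is 10 times the −log10 of the adjusted p-value of a peak against input, and it ran higher in replicate 1, with medians of 165 and 78.8 for the strongest promoter peak of a bound gene. Scores were therefore read within each replicate, as percentiles among bound genes. Scores took few distinct values: 98.7% and 98.6% of peaks shared both their q score and their log2 ratio of ChIP over input with another peak, and every peak of the 10 genes was among them.

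Among the group D genes, Sox13, whose product is a partner factor of T cell and neural development, had the highest promoter score. Its promoter peaks spanned chr1:133421994-133424817 with a q score of 181 in replicate 1 and chr1:133423129-133424569 with 83.4 in replicate 2, both over the start site with their midpoints in an intron. Their log2 ratios of ChIP over input were 3.20 and 2.54. Both q scores lay just above the middle of bound genes, at percentiles 54.2 and 53.1.

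Sox6, which works with Sox5 in cartilage and also in erythroid cells and muscle, is a gene of 568 kb on chr7. Its 6 curated start sites ran from position 115801609 to 116038744. Peaks lay at the 2 most upstream start sites in both replicates. At the most upstream one, at position 116038744, the q score was 66.3 in replicate 1 and 70.7 in replicate 2. At the next, at 116031047, it was 124 and 61.1, so the stronger of the sites differed between the replicates. The start site of Sox6os, a transcript named as Sox6 opposite strand, lies within 2 kb of the peaks at the second site, which cannot be assigned to one of the transcripts. Of the 4 other start sites, 115846140 had a peak 1303 bp away in replicate 2 alone (q score 39.2) and the rest had none. The strongest Sox6 promoter peak was at percentiles 39.7 and 43.8 by q score and at 66.2 and 87.7 by log2 ratio.

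Sox5, the close partner of Sox6 in cartilage formation, had the weakest promoter peaks of the 8 genes. In replicate 1 the peak lay 989 bp upstream of the start site at chr6:144210557-144211250, with a q score of 38.9 and a log2 ratio of 2.80. In replicate 2 another peak, at chr6:144209207-144209713, covered the start site in the first exon, with a q score of 31.4 and a log2 ratio of 2.096. These stood at percentiles 7.74 and 2.08 of bound genes, near the threshold of the lists, and the replicate 1 pair of values was listed for 1281 peaks in all. The internal start site at 143947106 had no peak within 2 kb in either replicate.

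In group E, Sox9 and Sox8 had the highest promoter scores of the 10 genes in replicate 1, and in replicate 2 Sox8 was highest with Sox30 between it and Sox9. Sox9, the factor that fixes the Sertoli cell fate and drives cartilage formation, had a peak over its start site at chr11:112780894-112785483 in replicate 1 and chr11:112781607-112785194 in replicate 2. The q scores were 373 and 105 and the log2 ratios 5.12 and 2.55. By q score Sox9 was at percentile 87.2 of bound genes in replicate 1 and 67.3 in replicate 2, and by log2 ratio at 94.4 and 38.2, so its replicates lay far apart on the second scale. Both peaks were among the broadest promoter peaks, at percentiles 95.6 and 97.9 of width.

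Sox8, a relative of Sox9 that helps to maintain Sertoli cells, had a q score of 323 in replicate 1 and 124 in replicate 2, with log2 ratios of 4.37 and 3.07. The replicate 1 peak was 11038 bp wide, at percentile 99.5 of width, and covered the whole gene of 4.79 kb. In replicate 2 the strongest peak was 1599 bp wide over the start site, and a second promoter peak of 1843 bp (q score 45.1) and a gene-body peak (q score 41.9) lay under the same interval. A second replicate 1 promoter peak, 1402 bp upstream, had a q score of 34.1 and was not found in replicate 2. Cerox1, a long noncoding RNA gene, has a start site within 2 kb of the strongest peaks.

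Sox10, the neural crest and glial member of the group, had flanking rather than centred promoter peaks. In replicate 1 a peak lay 420 bp upstream of the start site (chr15:79164910-79166547, q score 84.3, log2 ratio 3.19) and another 378 bp downstream (q score 58.7, log2 ratio 2.696). In replicate 2 a single peak lay 149 bp downstream (chr15:79163748-79164341, q score 41.9, log2 ratio 2.72). The upstream peak was thus listed in 1 replicate and the downstream one in both, at percentiles 28.3 and 16.2 of bound genes for the strongest peak. The predicted gene Gm10863 starts within 2 kb of all 3 peaks.

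In group F, whose members act together in vascular development, the genes differed. Sox18, mutated in the lymphatic and hair defects of ragged mice, had a peak over its start site in both replicates. In replicate 1 it spanned chr2:181670107-181674199 with a q score of 130 and a log2 ratio of 3.35. In replicate 2 that interval was overlapped by 2 peaks, one over the start site (q score 53.8) and one 1289 bp upstream (q score 61.5, log2 ratio 2.53). The percentiles were 41.1 and 36.2, below the middle of bound genes in both replicates.

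Sox17, also a factor of endoderm and of early germ cell specification in human, had no peak within 2 kb of its curated start site at chr1:4497354. Its nearest peaks lay inside the gene, 3370 bp from the start in replicate 1 (q score 41.4) and 5129 bp in replicate 2 (q score 34.5). This absence rests on the annotation. With all GENCODE M21 transcripts, Sox17 has further start sites 3619 and 3750 bp downstream of the curated one. A replicate 1 peak covered both, and the nearest replicate 2 peak lay 1379 bp from the closer. On that annotation Sox17 counted as bound in both replicates, and 9 of the 10 genes did. The share of all genes in both replicates, 52.2% with curated start sites, is not given here for the GENCODE start sites. The count of 9 therefore has no background beside it. With predicted RefSeq models added, a start site 1987 bp downstream had a replicate 1 peak 1383 bp away and no replicate 2 peak. A second replicate 1 peak and the replicate 2 peak overlapped by 219 bp, which is 39.2% of the one and 34.9% of the other.

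Sox7, an early endothelial and endoderm factor, had no peak in its promoter or gene body in either replicate, and none of the 3 annotations used gave it a promoter peak. The nearest peak was 30043 bp downstream of the start site in replicate 1 (q score 38.9) and 29005 bp upstream in replicate 2 (q score 31.9). The scores were near the threshold, and the peaks of the 2 replicates did not lie at the same place.

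Sox30, a regulator of the genes of postmeiotic male germ cells, had one compact promoter peak per replicate over the start site and the first coding exon. It spanned chr11:45979795-45981381 in replicate 1 (q score 243, log2 ratio 3.37) and chr11:45979799-45981063 in replicate 2 (q score 115, log2 ratio 3.003). The left edges of the 2 peaks lay 4 bp apart. The percentiles of the q score were 68.2 and 72.7, above the middle in both replicates.

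Ordered by the mean percentile of the q score over the replicates, Sox8 came first (79.3 ± 3.84, SD, n = 2), then Sox9 (77.2 ± 14.03), Sox30 (70.5 ± 3.13) and Sox13 (53.6 ± 0.787). Sox6 (41.7 ± 2.93), Sox18 (38.7 ± 3.48), Sox10 (22.2 ± 8.59) and Sox5 (4.91 ± 4.003) followed. For Sox5, Sox6 and Sox10 the strongest promoter peaks of the replicates lay at different places. Their means, SDs and ranks therefore join different sites. The replicate values of Sox8 and Sox9, of Sox9 and Sox30, and of Sox6 and Sox18 overlapped, so these neighbours were not separated. The replicate values of the other 4 neighbouring pairs did not overlap, with 2 values a gene. The rank correlation of the replicates over the 8 genes was 0.905 by q score and 0.595 by log2 ratio. Above a stricter q score of 60, promoter peaks remained at 7 genes in replicate 1 and 6 in both, against 35.2% of all genes in both. Sox10 passed in replicate 1 alone and Sox5 in neither.

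Base composition moved with occupancy over all genes, and the 10 genes did not all follow it. CpG content was measured as the observed over expected CpG ratio in 1 kb at the start site. For a gene with several start sites the highest ratio was taken. At Sox6 this was the ratio of the most upstream start site, and the next start site had 0.404. Of 11854 genes with a ratio of 0.6 or more, 95.8% had a promoter peak in replicate 1 and 89.96% in replicate 2, and 89.1% had one in both. Of the 14328 other genes, 35.3%, 25.4% and 21.7% did. Sox7 (0.782) and Sox17 (0.677) were in the first class without a promoter peak, and Sox18, with a close ratio of 0.770, had one. Sox5 (0.375), Sox6 (0.516) and Sox10 (0.325) were in the second class and had one. The remaining genes, Sox30 (0.890), Sox13 (0.814), Sox9 (0.792) and Sox8 (0.686), were CpG-rich and had peaks. The part of CpG content in these peaks was not tested.

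**Figure D2:**
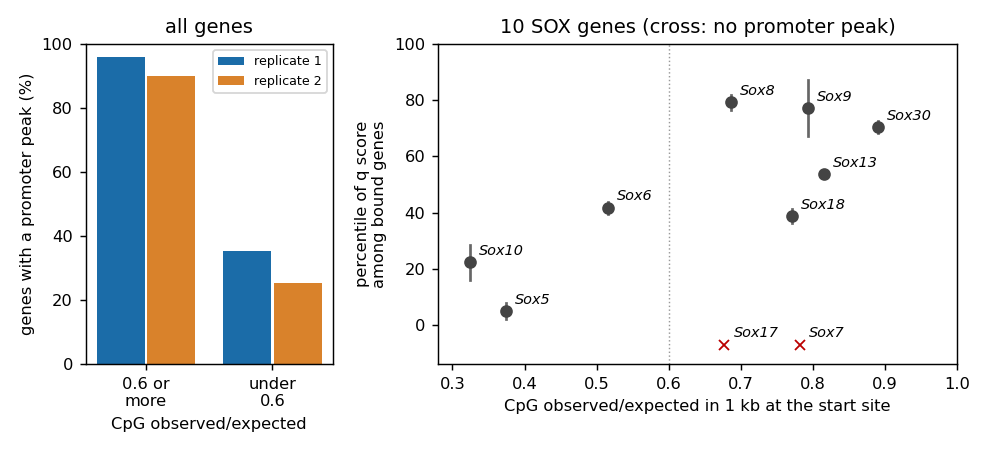
Left, bars give the share of all genes with a promoter peak (percent) in each replicate, by observed over expected CpG ratio. Right, the 10 SOX genes by that ratio (horizontal) and the percentile of their promoter q score among bound genes (vertical), points being means and lines the range of the 2 replicates. Sox7 and Sox17, marked with crosses, lie to the right of 0.6 without a peak, and Sox5, Sox6 and Sox10 to its left with one.

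Beyond the promoters, the 10 genes had 22 gene-body peaks in replicate 1 and 16 in replicate 2 (19 ± 4.24, SD, n = 2). Gene-body peaks, those in the gene span outside its promoters, were present at 6 genes in each replicate, against 35.7% and 27.9% of all genes. Sox5, Sox6, Sox13, Sox10 and Sox17 had them in both replicates, Sox9 in replicate 1 and Sox8 in replicate 2. Their midpoints lay in introns for 18 of 22 and 11 of 16 peaks. The median q scores were 37.3 and 35.6, close to the threshold of 30, and 3 and 2 of them exceeded 60.

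Sox13 had the most gene-body peaks, 8 in replicate 1 and 6 in replicate 2, in a gene of 41.9 kb. The pair of highest mean rank among them was at its 3′ end, where a replicate 1 peak of 6917 bp (q score 82.6) contained 2 peaks of replicate 2 (q scores 64.8 and 46.3). An intronic peak 6.03 kb from the start had a q score of 129 in replicate 1 and 31.4 in replicate 2. Of the Sox13 gene-body peaks, 4 of 8 and 5 of 6 were found in the other replicate.

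Sox5 and Sox6 are long genes, of 381 and 568 kb, and long genes often hold a peak: 68.8% and 65.1% of the 979 genes of 200 kb or more did. Sox5 had 6 gene-body peaks in replicate 1 and 1 in replicate 2, and Sox6 had 2 and 5. Per 100 kb this was 1.57 and 0.262 for Sox5 and 0.352 and 0.880 for Sox6. Among the 979 long genes, Sox5 was at percentiles 72.1 and 44.4 and Sox6 at 43.9 and 71.2, so the replicates placed the genes in opposite order. The density followed G+C content over these long genes, with rank correlations of 0.804 and 0.765 across genes.

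A single intronic Sox5 peak was found in both replicates, 149 kb from the start, at chr6:144060448-144060962 (q score 34.6) and chr6:144060239-144060729 (q score 31.2). Both had a heptamer in the 300 bp around the midpoint, and the window of replicate 1 is given with its 2 heptamers in capitals because it is the one Sox5 site that the replicates share.
Sox5 intron, chr6:144060556-144060855, plus strand: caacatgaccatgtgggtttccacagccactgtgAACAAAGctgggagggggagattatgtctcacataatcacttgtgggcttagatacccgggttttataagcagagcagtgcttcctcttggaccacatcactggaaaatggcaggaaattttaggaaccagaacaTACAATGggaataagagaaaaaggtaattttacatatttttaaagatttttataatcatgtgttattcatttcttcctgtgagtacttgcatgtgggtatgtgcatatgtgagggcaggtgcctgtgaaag

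Sox6 likewise had a single intronic peak found in both replicates apart from its upstream start sites, 372 kb from the most upstream start. It spanned chr7:115666677-115667649 (q score 63.6) and chr7:115666731-115667425 (q score 42.0), and it held no heptamer in either 300 bp window. A further replicate 2 gene-body peak, at chr7:116034049-116035053 (q score 61.1), lay inside the broad replicate 1 promoter peak of 4493 bp.

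**Figure D3:**
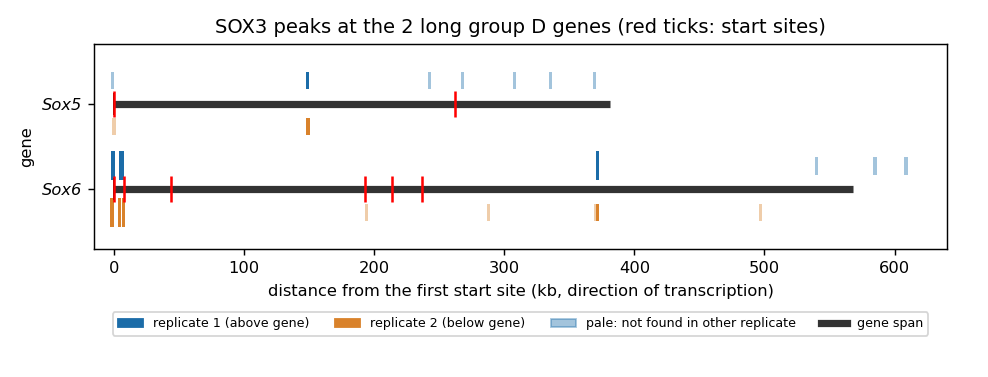
SOX3 peaks along Sox5 and Sox6 by distance from the first start site (kb), with replicate 1 above the gene bar, replicate 2 below it, red ticks for start sites, taller bars for q scores above 60 and pale bars for peaks not found in the other replicate. Bars are drawn at least 2.5 kb wide. Sox6 peaks cluster at its 2 upstream start sites, and each gene has one shared peak far inside an intron.

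Flanking peaks, outside the gene and within 50 kb of either end, numbered 69 in replicate 1 and 52 in replicate 2 (60.5 ± 12.02, SD, n = 2). They were present at 8 of the 10 genes in replicate 1 and 7 in replicate 2, against 76.5% and 72.5% of all genes. Sox5 and Sox17, with no other gene in reach, had none in either replicate, and Sox6 had 2 in replicate 1 and none in replicate 2. Sox8 (18 and 15), Sox10 (18 and 10), Sox18 (10 and 7) and Sox13 (9 and 8) had the most. Sox9 had 7 and 5, Sox30 4 and 5, and Sox7 1 and 2. Of all flanking peaks, 15 and 18 lay within 2 kb of a start site of another gene, and at Sox18 this held for 6 of 10 and 5 of 7.

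**Figure D4:**
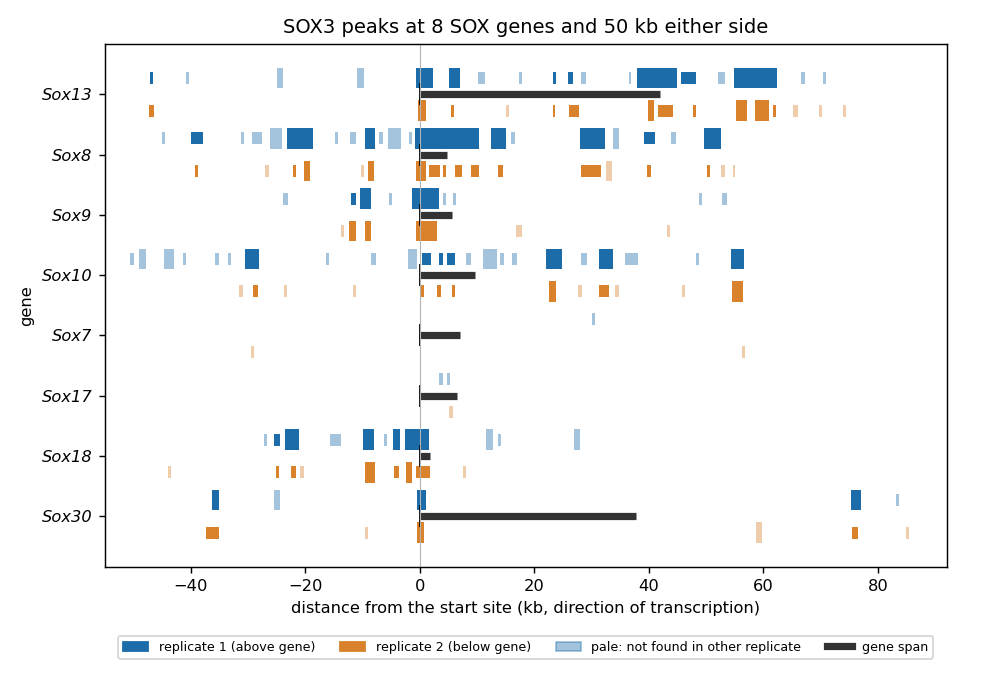
SOX3 peaks at the 8 shorter genes and 50 kb either side, by distance from the start site in the direction of transcription (kb), with replicate 1 above each gene bar and replicate 2 below it, taller bars for q scores above 60 and pale bars for peaks not found in the other replicate. Bars are drawn at least 0.5 kb wide. Sox8, Sox10 and Sox13 are surrounded by peaks of both replicates, and Sox7 and Sox17 are nearly empty.

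Peak density around the genes, counted over the gene and 50 kb either side, ran from 0.898 peaks per 100 kb at Sox6 to 20.99 at Sox10 in replicate 1. In replicate 2 it ran from 0.416 at Sox5 to 17.2 at Sox8. The G+C content of the same intervals ran from 40.5% at Sox6 to 52.4% at Sox10, and its rank correlation with density over the 10 genes was 0.794 and 0.855. Sox7, at 47.5% G+C, had 0.934 and 1.87 peaks per 100 kb. Sox9, at 46.7%, had 8.53 and 5.68, and Sox18, at 46.4%, had 10.8 and 8.84. The part of G+C content and of neighbouring genes in these counts was not tested.

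**Figure D5:**
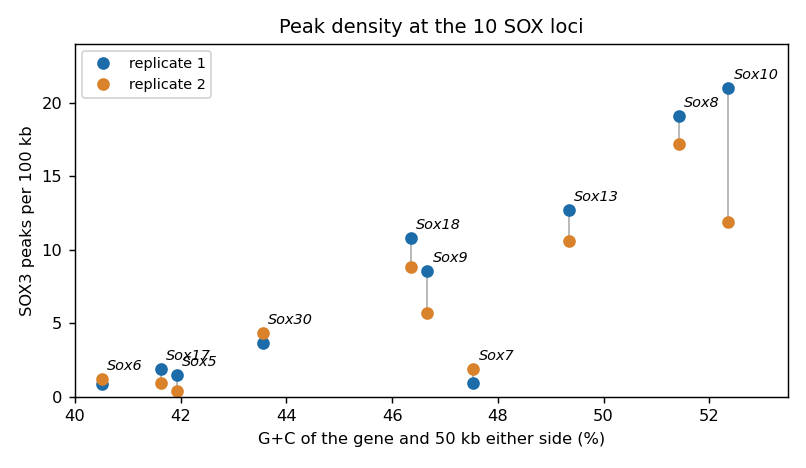
SOX3 peaks per 100 kb (vertical) against the G+C content in percent (horizontal) of each gene and 50 kb either side, 1 point per replicate, joined by a line for each gene. Sox8, Sox10 and Sox13 lie highest at the highest G+C content, and Sox7 lies below Sox9 and Sox18 at a similar one.

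Overlap between the replicates was counted by position. Of the promoter peaks of the 10 genes, 8 of 11 in replicate 1 and 10 of 12 in replicate 2 were found in the other replicate. Over all genes 70.5% and 86.3% of promoter peaks were found. Of the gene-body peaks 8 of 22 and 11 of 16 were found, and of the flanking peaks 22 of 69 and 27 of 52, where all peaks outside promoters gave 16.7% and 30.04%. That background leaves out peaks at any promoter, whereas the flanking peaks included those at promoters of other genes, of which 10 of 15 and 11 of 18 were found. Away from the promoters of other genes, 12 of 54 (22.2%) and 16 of 34 (47.1%) flanking peaks were found. Some replicate 2 peaks counted as found matched broad promoter peaks of replicate 1. These were flanking peaks at Sox8 and gene-body peaks at Sox8 and Sox6, and they are not among the pairs counted next. The gene-body and flanking peaks found in both replicates made 34 pairs, 10 at Sox13, 8 at Sox8, 6 at Sox10, 4 at Sox18, 2 at Sox9, 2 at Sox30, 1 at Sox5, 1 at Sox6 and none at Sox7 or Sox17. Of the pairs, 22 lay away from the start site of any other gene in both replicates.

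The 5 pairs of the highest mean rank were flanking peaks near other genes. A peak 55.5 kb downstream of the Sox10 start, at the promoter of Micall1, had q scores of 275 and 102. One at -8.89 kb from the Sox18 start, at Tcea2, had 222 and 90.03, and one at -8.72 kb from the Sox8 start, at Lmf1, had 155 and 80.6. The other pairs joined 1 replicate 1 peak near Etnk2, downstream of Sox13 (q score 211), to 2 peaks of replicate 2 (90.7 and 73.8). These peaks cannot be assigned to the SOX genes rather than to their neighbours.

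Sox9, whose expression in the testis is known to depend on distant upstream enhancers, had 2 shared upstream pairs, which were named after their values were seen. The nearer spanned chr11:112771842-112773610 in replicate 1 (q score 71.6) and chr11:112772681-112773655 in replicate 2 (q score 70.1), with midpoints at -9.48 and -9.04 kb from the start site. A heptamer was present in the 300 bp window in both replicates. The farther had midpoints at -11.6 and -11.7 kb and q scores of 53.2 and 64.0, with no heptamer in either window. No other gene has a start site within 2 kb of these peaks. The coordinates of known Sox9 enhancers were not matched here.

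The heptamers were found in the central 300 bp of 2 of 11 promoter peaks of the 10 genes in replicate 1 (18.2%) and 2 of 12 in replicate 2 (16.7%). All promoter peaks gave 14.9% and 13.0%. Of the gene-body and flanking peaks, 23 of 91 (25.3%) and 14 of 68 (20.6%) held one, and away from the promoters of other genes 21 of 76 (27.6%) and 11 of 50 (22%) did. All peaks outside promoters, the like set for the second pair of values, gave 27.4% and 27.2%. The promoter peaks with a heptamer were at Sox5 and Sox6 in replicate 1 and at Sox6 and Sox18 in replicate 2. The promoter peaks of Sox13, Sox8, Sox9, Sox10 and Sox30 held none in this window. In broad peaks it can lie far from the start site, 4732 bp away for Sox8 in replicate 1. Read over the whole peak, replicate 1 promoter peaks of Sox13, Sox8, Sox9 and Sox10 held one, as did replicate 2 peaks of Sox13 and Sox8. Of all promoter peaks, 66.5% and 56.2% did.

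The other SOX genes gave the nearest comparison. Of the 10 SOX genes of groups A, B1, B2, C and G, 8 had a promoter peak in replicate 1 and 6 in replicate 2, where the 10 genes described here had 8 and 8. The share over all genes, for this and the lists below, was 62.7% in replicate 1 and 54.7% in replicate 2. Among known partners and targets of group E factors, 10 of 11 had a promoter peak in replicate 1 and 8 in replicate 2. All of this list but Amh and Ptgds had a CpG ratio of 0.6 or more, a class in which 95.8% and 89.96% of all genes had one. Over the group E list genes with a peak the median q score was 133 and 70.2, against 165 and 78.8 over all bound genes. The group E list included genes of the Sertoli lineage, Amh (q scores 568 and 112), Dmrt1 (247 and 150), Gata4 (278 and 124) and Wt1 (271 and 76.7). The paper also names DMRT1 as a possible activator in differentiating spermatogonia. Of these scores, only that of Wt1 in replicate 2 lay below the median of bound genes. Nr5a1 (102 and 63.7) and Fgf9 (102 and 57.2) lay below the medians of bound genes, and the Fgf9 peaks did not overlap between the replicates. Ptgds had a peak in replicate 1 alone (67.8), and the cartilage collagen Col2a1 had none. Among 9 vascular partners and targets of group F factors, 7 and 6 had one, with a median q score of 62.3 and 48.2. Notch1 had the highest q scores of these (301 and 118), followed in both replicates by Nr2f2 (153 and 69.3). The endothelial receptor Kdr had 125 and 43.3. Cdh5, which encodes VE-cadherin, had 62.3 and 40.8 and the Notch ligand gene Dll4 38.6 and 53.2, in both cases at peaks that did not overlap between the replicates. The lymphatic factor Prox1 had 31.8 and 37.6, Flt1 had a peak in replicate 1 alone (48.3), and Tek and Vcam1 had no promoter peak.

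The ChIP-nexus lists held 111 and 19 regions, and none lay within 50 kb of any of the 10 genes. The nearest was 3236 kb from Sox9 in replicate 1 and 26747 kb from Sox30 in replicate 2. With lists this short, the ChIP-nexus data gave no second measurement of the ChIP-seq peaks described here.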

How the data were processed

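SOX3 ChIP-seq and ChIP-nexus of mouse testis at postnatal day 7 were analysed as deposited peak lists, with 2 replicates each (4 of 19 labelled samples; 15 were not analysed here). Per the methods, the authors aligned reads to mm10 with Novoalign, placed reads with several matches at random, removed duplicates with Picard and called ChIP-seq peaks per replicate with USeq. The deposited ChIP-seq lists carry no column names; their p and q scores (10 times the −log10 of the p-value and adjusted p-value, kept above 30) and the log2 ratio of ChIP over input were identified by the authors' caller layout and the values. The deposited ChIP-nexus lists are MACS output (version 2.1.1 per the labels), with a score, fold enrichment and −log10 p- and q-values given by the authors. Whether the blacklist filter of the methods was applied to these lists is not stated. The lists hold no read counts, so no interval was computed; per the study's reporting summary, replicate 2 of the ChIP-seq had more unique reads than replicate 1.

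Start sites were those of 45756 curated RefSeq transcripts on GRCm38. A peak was promoter (any base within 2 kb of a start site), gene body or flank (within 50 kb), and was found in the other replicate when the overlap was at least 50% of either peak. Motifs were read in 300 bp around the midpoint. Percentiles are among genes with a promoter peak. With 1 factor and 2 replicates no test was made. Whether the replicates came from separate animals is not given in the labels, and the study's reporting summary calls the 2 independent biological replicates. All 10 genes were named, with their strongest promoter peaks and the 5 shared distal pairs of highest mean rank of the q score. The genes and comparison lists were chosen with earlier results of these data known. Alternatives covered the promoter and flank windows, score minimum, position rule, annotation, overlap, motif, motif window, measure and each replicate left out. Python 3.11.15, numpy 2.4.6, pandas 2.3.3 and matplotlib 3.10.9 were used, and the assignment and overlap code was tested on simulated data.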

Additional observations from a re-analysis of the deposited data

How the results depend on the processing

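Of 35 alternatives, 22 stayed close to the reported value (within 1.5 times for a count), 13 moved further and 0 reversed. Counts and shares have no direction, so of these results only the rank correlation could have reversed. The number of SOX genes with a promoter peak in both replicates was 8 with promoters of 1 and 5 kb, by midpoint and with all RefSeq transcripts. It was 6 above a q score of 60 and 9 with GENCODE transcripts. The share of all genes was 52.2% at the main setting and 35.2% above 60. For the other settings that share is not given here, so those counts have no background beside them. Above 60, gene-body peaks fell to 3 and 2 and flanking peaks to 27 and 11 in replicates 1 and 2, and a 20 kb flank gave 30 and 21, which fewer peaks and a shorter window give by construction. Peaks with a SOX motif, 24.5% and 20%, became 10.8% and 10.0% with AACAAT, 10.8% and 6.25% in 100 bp and 63.7% and 45.0% over the whole peak. In the same order, all peaks outside promoters gave 9.93% and 9.76%, 9.83% and 9.76%, and 54.3% and 50.9%. All promoter peaks gave 5.04% and 4.40%, 4.86% and 4.16%, and 66.5% and 56.2%. The rank correlation of the replicates became 0.595 by log2 ratio, and the cause was not tested. Leaving out each replicate gave 8 genes with a promoter peak each time, 16 to 22 gene-body peaks and 52 to 69 flanking peaks. No paired analysis was possible because the results come from no test.

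Peaks near the threshold, such as those of Sox5, Sox7 and Sox17, share their scores with many others, and an absent peak means that none passed the authors' threshold, not that SOX3 was absent. The shorter ChIP-seq list, that of replicate 2, came from the library with more unique reads per the study's reporting summary, and the cause of the difference between the lists was not tested.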
